A study of Mus musculus with 9 samples.

Results

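The fast and slow troponins and the tropomyosins are the calcium switch of the muscle thin filament, and their transcripts were followed here in mouse cochlea across age and calorie restriction. The set holds 9 genes: the fast-fibre troponins Tnnc2, Tnni2 and Tnnt3, the slow-fibre troponins Tnnc1, Tnni1 and Tnnt1, and the tropomyosins Tpm1, Tpm2 and Tpm3. Its members were the probe sets that the platform annotation assigns to exactly 1 of these symbols, which gave 21 probe sets of 45037 on the array and 9 genes of 18193 named by single-gene probe sets. CR mice were male C57BL/6 mice of 15 months that received 62 kcal per week from 2 months of age, 26% less than controls. MC mice were control mice of 15 months fed 84 kcal per week, and YC mice were control mice of 4 months on the same ration, also male C57BL/6. All mice were housed singly. Each group had 3 arrays, each array held RNA of 4 cochleae pooled from 2 mice, and the spread between arrays is therefore a spread between pools. The labels name no altered genotype in any group.

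In striated muscle, calcium binds troponin C, which relieves the block that troponin I places on actin and myosin, while troponin T ties the complex to tropomyosin lying along the actin filament. Fast and slow fibres make these subunits from separate genes: troponin C comes from Tnnc2 in fast fibres and from Tnnc1 in slow fibres and heart, troponin I from Tnni2 and Tnni1, and troponin T from Tnnt3 and Tnnt1. Tpm1 encodes alpha-tropomyosin of fast fibres and heart, Tpm3 the tropomyosin of slow fibres and Tpm2 the beta-tropomyosin of both. The tropomyosin genes also give non-muscle and smooth-muscle transcripts through other start sites and splicing. The cochlea has no skeletal muscle of its own in textbook anatomy, and the middle ear muscles lie beside it.

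Values are quantile-normalized log2(signal + 16), and a change is a difference of group means on that scale, which understates the change of dim probe sets. Changes were tested with limma over the 27022 probe sets that passed a filter on mean log2 signal, set at 8.95, and a call is a Benjamini-Hochberg adjusted p under 0.05 over all of them. Of the 21 member probe sets, 17 passed the filter. The 4 that did not were 1 of 3 for Tnni2 and 3 of 5 for Tpm3. Levels are compared between arrays for 1 probe set and never between probe sets. The array medians of the deposited signal fell into a low class of 526.8 to 626.6, with all 3 CR arrays and YC1, and a high class of 842.4 to 1103.9, with all 3 MC arrays, YC2 and YC3. No class holds both CR and MC arrays, and values with the class as a term are given after the results.

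All 3 fast troponins stood lower on every CR array than on any MC array. Tnnc2 (probe set 1417464_at), fast troponin C, had 15.76, 15.46 and 15.26 on the CR arrays, against 17.34, 16.92 and 17.64 on the MC arrays and 16.58, 17.29 and 17.25 on the YC arrays. The CR arrays lay together below both control groups, whose values overlapped each other. Its mean was 15.49 ± 0.25 in CR, 17.30 ± 0.36 in MC and 17.04 ± 0.40 in YC (SD, n = 3 each). The change from MC was -1.81 ± 0.24 (SE), 3.5-fold lower in CR, with a limma adjusted p of 0.0357.

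Tnni2 (1416889_at), the fast inhibitory subunit, had 14.60, 13.99 and 13.86 in CR, 16.48, 16.15 and 16.49 in MC, and 15.38, 15.95 and 16.58 in YC. The groups CR and MC did not overlap, and the MC arrays lay close together. The change was -2.22 ± 0.29, or 4.67-fold lower in CR, at a limma adjusted p of 0.0357. A further Tnni2 probe set (1438609_x_at), whose suffix marks probes that may also match other sequences, read -2.16 ± 0.32 with an adjusted p of 0.0455. The dim Tnni2 probe set 1438608_at, below the filter, had 7.04, 7.49 and 5.49 in CR, 7.91, 8.32 and 8.81 in MC, and 7.38, 6.50 and 8.91 in YC. Its CR and MC arrays did not overlap, and its limma adjusted p was 0.322 in the fit without a filter.

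Tnnt3 (1450118_a_at), the fast tropomyosin-binding subunit, had 14.32, 13.30 and 13.55 in CR, 16.30, 15.86 and 16.21 in MC, and 15.05, 14.95 and 16.48 in YC. Its CR and MC arrays did not overlap either, and 1 YC array, YC3, stood above all MC arrays. The change of -2.40 ± 0.38 was the largest of the fast troponins but had a limma adjusted p of 0.0616, and of 0.0457 when all 45037 probe sets were tested. In the fit with the filter, Tnnc2 and Tnni2 fell in CR and Tnnt3 did not pass.

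**Figure D1:**
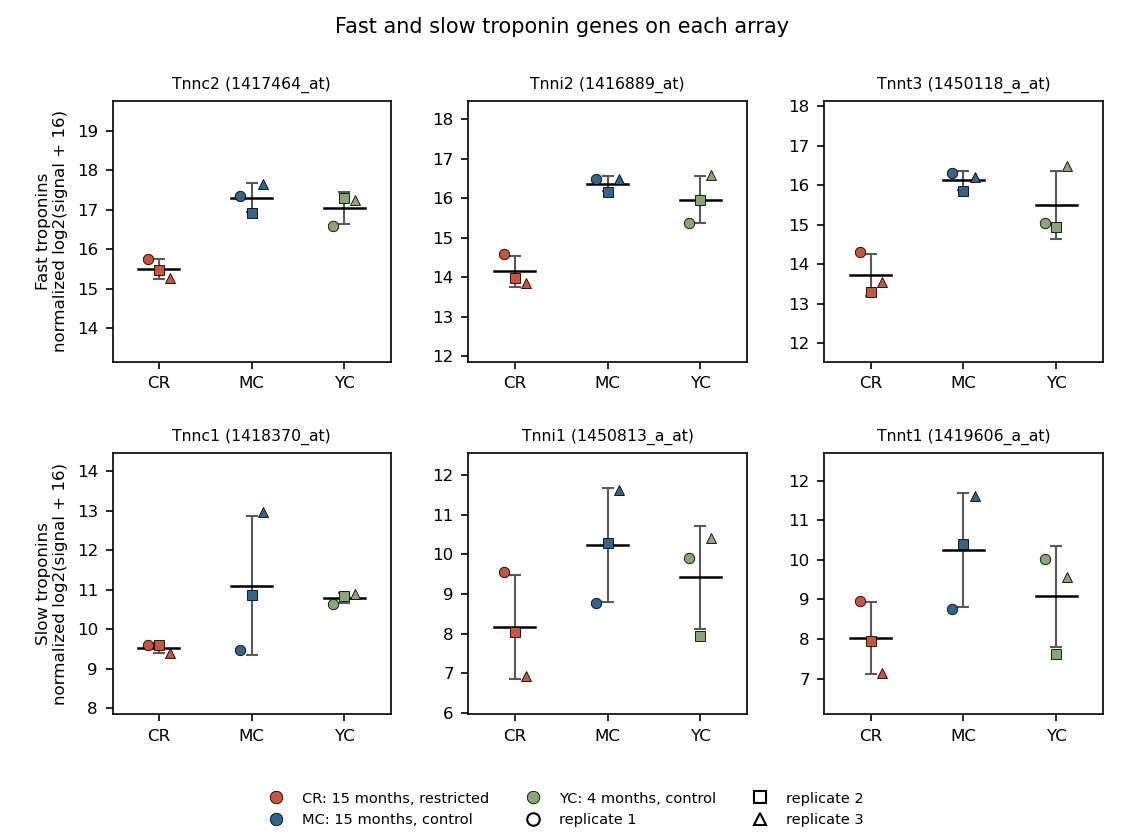
Normalized log2(signal + 16) of the brightest probe set of each troponin gene on every array, with CR, MC and YC from left to right, bars at the group mean and whiskers at ± 1 SD (n = 3 arrays each). Each panel spans the same number of log2 units around its own centre. The fast genes in the upper row show CR arrays below all MC arrays, at -1.81 to -2.40 in the means, while the MC arrays of the slow genes spread over 2.86 to 3.49 log2 units.

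The slow troponins had lower CR means too, but their MC arrays did not lie together. Tnnc1 (1418370_at), slow troponin C, had 9.61, 9.60 and 9.39 in CR, 9.48, 10.88 and 12.96 in MC, and 10.65, 10.85 and 10.89 in YC. MC1 lay inside the CR values and MC3 far above every other array, whereas all CR arrays lay below all YC arrays. The CR minus MC change was -1.57 ± 0.68 (limma adjusted p = 0.252). Leaving out MC3 moved it to -0.65 and leaving out MC1 to -2.39, so that the size of the Tnnc1 difference rested on which MC array was used.

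Tnni1 (1450813_a_at), the slow inhibitory subunit, had 9.55, 8.04 and 6.93 in CR, 8.77, 10.30 and 11.64 in MC, and 9.90, 7.95 and 10.42 in YC. CR1 lay above MC1 and YC2 stood below CR1 and CR2, so every pair of groups overlapped. The change was -2.06 ± 0.91, with a limma adjusted p of 0.262. Tnnt1 (1419606_a_at), the slow tropomyosin-binding subunit, had 8.96, 7.94 and 7.15 in CR, 8.75, 10.40 and 11.62 in MC, and 10.03, 7.63 and 9.57 in YC. CR1 again lay above MC1, and YC2 was the lowest of its group. Its change was -2.24 ± 0.86 at an adjusted p of 0.218. Without MC3 the changes were -1.36 for Tnni1 and -1.56 for Tnnt1, and without MC1 they were -2.79 and -3.00.

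The 3 slow troponins therefore shared the order of MC arrays, with MC1 lowest and MC3 highest. The range within MC was 3.49 log2 units for Tnnc1, 2.86 for Tnni1 and 2.86 for Tnnt1. For the fast genes the range within MC was 0.72 for Tnnc2, 0.34 for Tnni2 and 0.44 for Tnnt3. Mean log2 values over the 9 arrays were 9.12 to 10.48 for the 3 slow troponin probe sets, with the filter at 8.95.

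Because the troponin C genes carry the fast and slow calcium-binding forms, their promoter sequences are shown here, as the 250 bases before the annotated start in RefSeq GRCm38.p6, read 5′ to 3′ on the gene's strand. Capitals mark matches on either strand to the E-box CANNTG, the core site of the myogenic bHLH factors, or to the MCAT element CATTCC, the site of TEAD factors. The Tnnc2 window is chr2:164779735-164779984 on the minus strand and the Tnnc1 window is chr14:31208062-31208311 on the plus strand.
Tnnc2: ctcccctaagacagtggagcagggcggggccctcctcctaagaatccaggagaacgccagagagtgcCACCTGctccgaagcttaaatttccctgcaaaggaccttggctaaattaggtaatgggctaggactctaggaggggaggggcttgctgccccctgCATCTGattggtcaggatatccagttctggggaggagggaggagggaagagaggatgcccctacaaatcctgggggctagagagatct
Tnnc1: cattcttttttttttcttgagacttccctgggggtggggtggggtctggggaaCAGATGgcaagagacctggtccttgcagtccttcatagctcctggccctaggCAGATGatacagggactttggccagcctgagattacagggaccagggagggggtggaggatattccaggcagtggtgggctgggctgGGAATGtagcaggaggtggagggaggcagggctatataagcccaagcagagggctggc
Tnnc2 had 2 E-box matches and no MCAT match, and Tnnc1 had 2 E-box matches and 1 MCAT match. The table held windows for 7 of the 9 members, 9 windows in all, of which 2 belong to Tnni1 and overlap, and 2 to Tpm3; it had none for Tnni2 and Tnnt3. An E-box was found in 9 of these 9 windows, against 66.2% of all 32851 windows of the same length. MCAT was found in 2, those of Tnnc1 and Tpm1, against 12.6% of all windows. No member window matched the CArG box (1.47% of all) or the MEF2 site (2.92% of all) on either strand. A match is a run of letters and was not tested as a bound site.

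Whether fast and slow isoforms changed unequally was asked within each array, as the difference of the fast minus the slow probe set, which carries an unknown offset and was compared between arrays only. Tnnc2 minus Tnnc1 was 6.15, 5.86 and 5.87 in CR, against 7.86, 6.03 and 4.67 in MC and 5.93, 6.43 and 6.36 in YC. The MC arrays enclosed both other groups, and the change between CR and MC was -0.23 (SD 0.16 in CR and 1.6 in MC, n = 3 each; exact two-sided permutation p = 0.8). Tnni2 minus Tnni1 was 5.04, 5.95 and 6.93 in CR, against 7.70, 5.86 and 4.85 in MC, a change of -0.16 (exact permutation p = 1). Tnnt3 minus Tnnt1 was 5.36, 5.37 and 6.40 in CR, against 7.55, 5.46 and 4.6 in MC, a change of -0.16 (exact permutation p = 0.8).

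For all 3 troponin pairs the CR values lay inside the range of the MC values. Unequal change of fast and slow troponins was not detectable between CR and MC with this spread and 3 arrays per group, which does not show that they changed alike. The CR means of Tnni1 (8.18) and Tnnt1 (8.01) lay below the filter at 8.95, and these probe sets passed it through their MC and YC arrays, so their CR values are near the dim end and the pair differences are limited there. The other 6 troponin pair comparisons gave changes of -0.71 to -0.05 with exact permutation p-values of 0.2 to 1. With 3 arrays against 3 the smallest p this test allows is 0.1, so no pair could pass 0.05 whatever its values. After Benjamini-Hochberg adjustment over the 12 pair comparisons every p was 0.96 or 1.

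The mean deviations of the fast and the slow troponins from their own means over 9 arrays show how the arrays were placed. The fast troponins deviated by -0.85, -1.49 and -1.52 in CR, 0.97, 0.57 and 1.04 in MC, and -0.07, 0.32 and 1.03 in YC. The slow troponins deviated by -0.25, -1.10 and -1.80 in CR, -0.62, 0.90 and 2.45 in MC, and 0.57, -0.82 and 0.67 in YC. CR2 and CR3 were low in both, whereas MC1 was high in the fast and low in the slow genes. Over the 9 arrays the deviations had a Pearson r of 0.69 and a Spearman rho of 0.78, and r was 0.31 once group means were removed; arrays of 1 group share age and diet, and the values are descriptive.

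**Figure D2:**
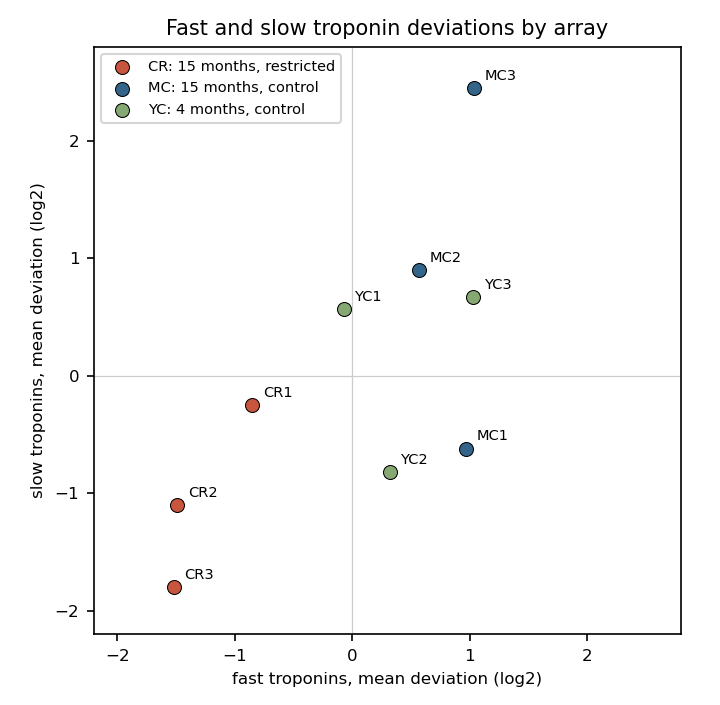
Mean deviation of the 3 slow troponins (vertical, log2) against that of the 3 fast troponins (horizontal, log2) for each of the 9 arrays, coloured by group. The 3 CR arrays lie at or below -0.85 on the fast axis, and MC1 and MC3, both near 1 on the fast axis, stand at -0.62 and 2.45 on the slow axis.

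All 4 Tpm2 probe sets had CR arrays below all MC arrays, and 2 of them passed the test. Tpm2 (1419739_at) had 11.72, 11.38 and 11.44 in CR, against 14.25, 13.63 and 14.36 in MC and 12.50, 13.89 and 14.06 in YC. The CR arrays lay close together below every control array, with YC1 nearest to them. The change was -2.57 ± 0.37, or 5.93-fold lower in CR, at a limma adjusted p of 0.0455. Tpm2 (1449577_x_at) had 12.95, 12.02 and 12.27 in CR, 15.36, 14.48 and 15.08 in MC, and 14.00, 13.50 and 14.97 in YC, a change of -2.56 ± 0.38 with an adjusted p of 0.0455. CR again stood apart from both control groups. The suffix of 1449577_x_at marks probes that may also match other sequences. The platform annotation gives it the same source sequence as 1419739_at, so these probe sets are not separate observations. The other Tpm2 probe sets had changes of -1.94 ± 0.37 (1425028_a_at, limma adjusted p = 0.0904) and -1.24 ± 0.37 (1419738_a_at, adjusted p = 0.176), so the size for Tpm2 depended on the probe set.

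Tpm1 probe sets differed among themselves more than those of Tpm2. Tpm1 (1423049_a_at) had 13.47, 12.49 and 12.82 in CR, 15.34, 15.41 and 14.88 in MC, and 13.44, 13.87 and 15.90 in YC. CR and MC did not overlap, while YC1 lay inside the CR values and YC3 above all MC arrays. The change was -2.28 ± 0.52, with a limma adjusted p of 0.145. Tpm1 (1447713_at) had 9.88, 9.51 and 9.41 in CR, 11.03, 11.02 and 11.28 in MC, and 10.58, 11.24 and 11.50 in YC, a change of -1.51 ± 0.33 (adjusted p = 0.128). These CR arrays lay below all control arrays.

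The remaining Tpm1 probe sets showed no such separation. Tpm1 (1423721_at) had 12.60, 12.38 and 12.44 in CR, 12.38, 12.91 and 11.93 in MC, and 12.65, 12.09 and 12.86 in YC, a change of 0.07 ± 0.29 (limma adjusted p = 0.906). All 3 groups overlapped, and the sign turned when MC3 was left out (-0.17). Tpm1 (1456623_at) had a difference of -0.16 ± 0.48, with an adjusted p of 0.871 and overlap in every comparison. Over the 9 arrays, 1423049_a_at and 1447713_at followed the fast troponin deviations with r of 0.92 and 0.97, while 1423721_at and 1456623_at had r of -0.02 and 0.12. The sources used here do not say which Tpm1 transcripts each probe set reports.

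Tpm3 had 5 probe sets, and only 2 passed the filter. Tpm3 (1427260_a_at) had 13.03, 12.96 and 13.00 in CR, 14.23, 13.89 and 13.20 in MC, and 13.27, 13.74 and 13.30 in YC. The CR arrays lay within a narrow band just below every control array, and the change from MC was -0.78 ± 0.26 (limma adjusted p = 0.191). Tpm3 (1436958_x_at) had 12.98, 12.71 and 12.51 in CR, 12.91, 13.12 and 13.30 in MC, and 12.34, 11.06 and 12.93 in YC, a change of -0.38 ± 0.39 (adjusted p = 0.604). Its CR1 array lay above MC1, and YC2 stood far below the other arrays. Its suffix likewise marks probes that may also match other sequences. With arrays centred on their own medians instead of quantile-normalized, both changes turned above 0 (0.21 and 0.58), while the median of all tested probe sets stood at 0.58.

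The Tpm3 probe sets below the filter differed among themselves. Tpm3 (1449997_at) had 7.28, 6.83 and 7.08 in CR, 7.80, 10 and 11.78 in MC, and 9.95, 6.99 and 9.49 in YC. It repeated the order of the slow troponins within MC, with MC1 low and MC3 high. Its YC2 array was low, as for Tnni1 and Tnnt1 but not for Tnnc1. It had an r of 0.95 with the slow deviations over 9 arrays. Tpm3 (1449996_a_at) had 8.42, 7.30 and 8.09 in CR, 5.69, 9.61 and 10.78 in MC, and 9.51, 6.28 and 9.44 in YC, with the same low arrays and an r of 0.78. Tpm3 (1427567_a_at) ran the other way, at 9.38, 9.35 and 9.99 in CR, 7.14, 8.08 and 6.83 in MC, and 9.29, 8.42 and 8.77 in YC. Every CR array was higher than every MC array there, by 2.22 in the means, with a limma adjusted p of 0.165 in the fit without a filter. That fit gave 0.222 for 1449997_at, whose CR arrays lay below all MC arrays, and 0.777 for 1449996_a_at, whose groups overlapped.

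Tpm3 is shown with both of its start windows, since the probe sets of this gene disagree and its transcripts begin at separate starts. The upstream window is chr3:90072401-90072650 and the downstream window chr3:90079271-90079520, both on the plus strand of RefSeq GRCm38.p6, with capitals for the E-box as above.
Tpm3 upstream: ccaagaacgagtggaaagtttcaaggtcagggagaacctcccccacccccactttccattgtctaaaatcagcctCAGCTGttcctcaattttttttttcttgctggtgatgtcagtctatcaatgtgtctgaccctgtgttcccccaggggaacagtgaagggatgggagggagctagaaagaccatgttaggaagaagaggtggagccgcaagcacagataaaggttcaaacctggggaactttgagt
Tpm3 downstream: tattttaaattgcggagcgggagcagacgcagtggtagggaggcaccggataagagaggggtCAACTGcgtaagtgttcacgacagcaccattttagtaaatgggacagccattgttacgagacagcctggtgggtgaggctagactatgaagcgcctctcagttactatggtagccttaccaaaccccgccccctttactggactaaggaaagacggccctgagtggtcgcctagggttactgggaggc
Each window held 1 E-box match and no MCAT match. The sources used here do not assign probe sets to starts, so no probe set was placed on a window.

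Tpm1 minus Tpm3, taken between their brightest probe sets, was the only pair whose CR and MC arrays did not overlap. The difference was 0.44, -0.46 and -0.18 in CR, against 1.11, 1.53 and 1.68 in MC and 0.17, 0.13 and 2.60 in YC. The change was -1.51 (SD 0.46 in CR and 0.3 in MC, n = 3 each), with an exact permutation p of 0.1, the smallest possible, and an adjusted p of 0.96 over 12 comparisons. With the mean of each gene's probe sets in place of the brightest, it was -0.39 (exact permutation p = 0.1, n = 3 each). With 1449997_at, the Tpm3 probe set most like the slow troponins, in place of the brightest one, an alternative chosen after seeing the data, the change was 0.51 (exact permutation p = 0.7, n = 3 each), so the size and the sign of this pair depended on the probe sets used.

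**Figure D3:**
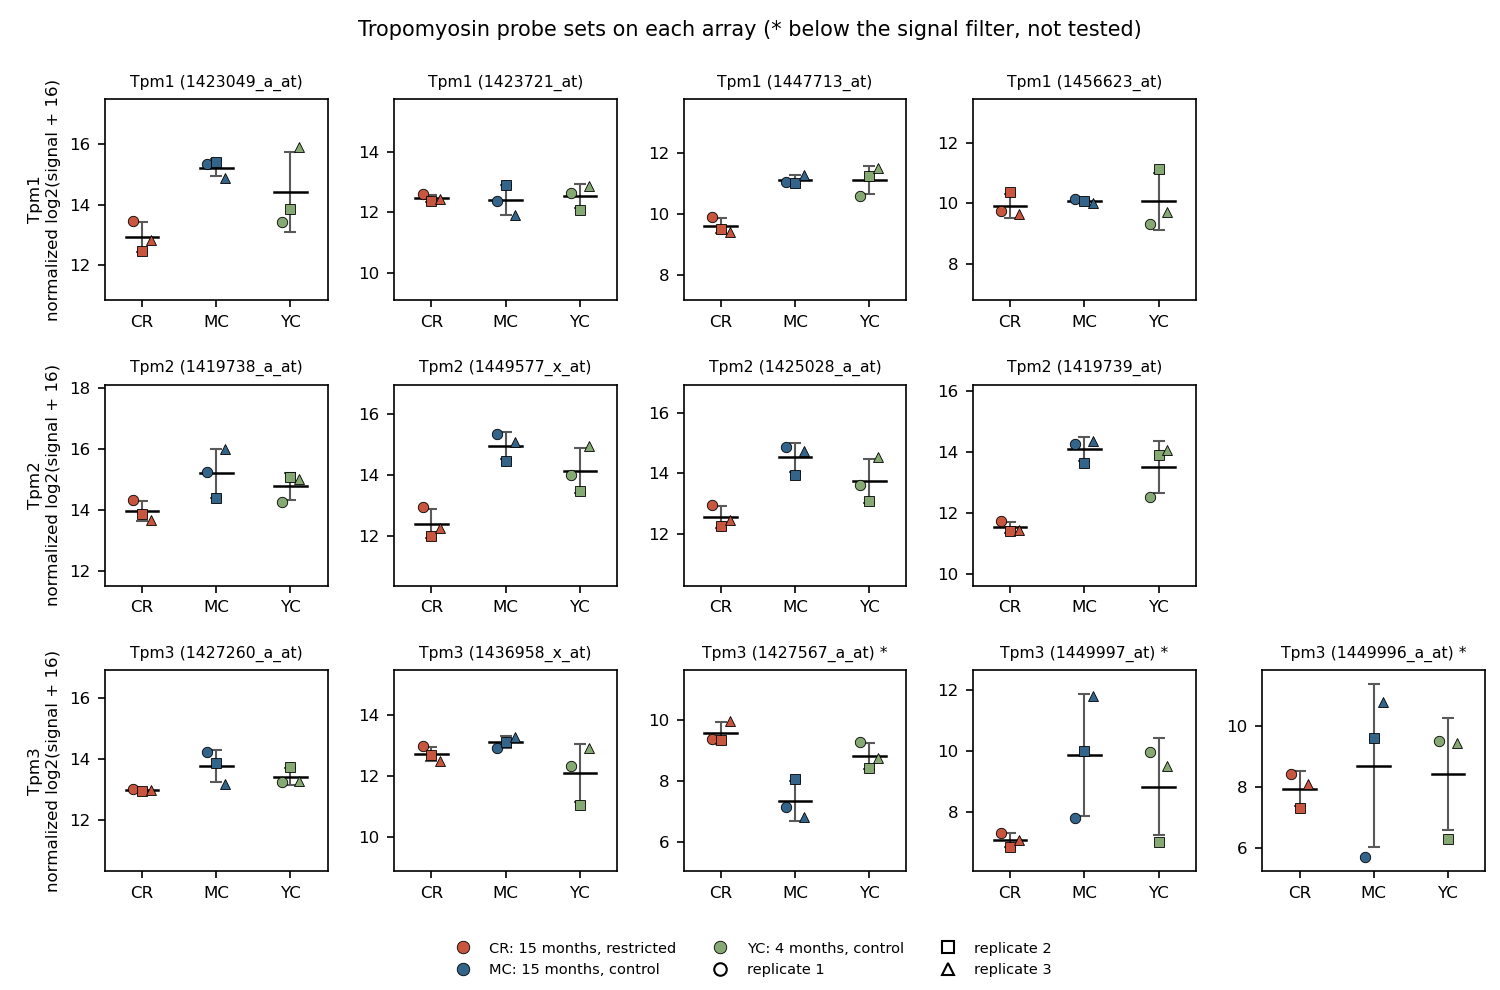
Normalized log2(signal + 16) of every tropomyosin probe set on each array, CR, MC and YC from left to right, with group means and ± 1 SD (n = 3 arrays each); an asterisk marks probe sets below the filter. All 4 Tpm2 panels show CR below MC, the Tpm1 panels divide into a pair at -2.28 and -1.51 and a pair at 0.07 and -0.16, and the Tpm3 panels run from 2.22 to -2.80 in CR minus MC.

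Across the members, 5 of the 17 tested probe sets passed the test in CR against MC, all lower, when 0.0888% of all tested probe sets were called lower. They belong to Tnnc2, Tnni2 (2 probe sets) and Tpm2 (2 probe sets). In the fit without a filter 6 of 21 were called, the sixth being Tnnt3, against 0.0577% of all probe sets. At an unadjusted p under 0.05, 14 of 17 were lower, against 9.54% of all. CR and MC arrays did not overlap for 11 of 17, all lower, against 18.2%, and 16 of 17 changes were below 0, against 45.3%. The median change was -1.94 over the members and 0.08 over all tested probe sets. The 14 include Tnni1 and Tnnt1, whose CR means (8.18 and 8.01) lay below the filter at 8.95. Both passed the filter through their MC and YC arrays, and both also count in the 16 changes below 0 and in the member median.

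**Figure D4:**
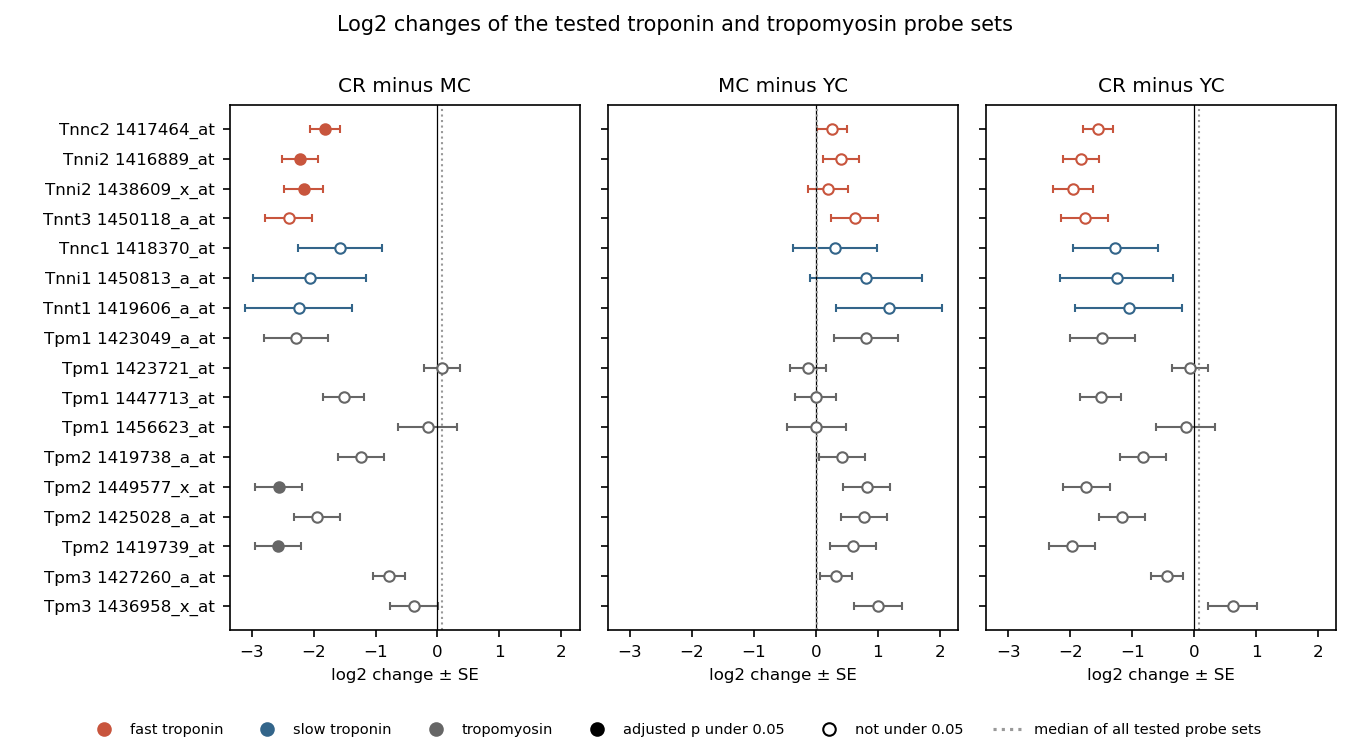
Log2 change ± SE from limma of the 17 tested probe sets in CR minus MC, MC minus YC and CR minus YC; filled points have an adjusted p under 0.05 and the dotted line is the median of all 27022 tested probe sets. The filled points are 5, all in CR minus MC, between -1.81 and -2.57.

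Age alone gave no call in these genes or in any other. In MC against YC, 0 of 17 member probe sets passed in limma (0% of all tested), the smallest adjusted p over all probe sets was 0.927, and 1 of 17 had an unadjusted p under 0.05, against 3.39% of all. That probe set was Tpm3 (1436958_x_at), with 1.0 ± 0.39 and an unadjusted limma p of 0.0275. No tested member separated the MC from the YC arrays, against 5.88% of all probe sets. Changes were above 0 for 16 of 17, against 52.3% of all, with a median of 0.42 over the members and 0.02 over all. With arrays centred on their medians, Tnni2 (1438609_x_at) and Tpm1 (1447713_at) turned below 0, at -0.05 and -0.15.

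Among single genes, the MC minus YC change was 0.26 ± 0.24 for Tnnc2, 0.40 ± 0.29 for Tnni2 and 0.63 ± 0.38 for Tnnt3. It was 0.31 ± 0.68 for Tnnc1, 0.81 ± 0.91 for Tnni1 and 1.18 ± 0.86 for Tnnt1, where MC3 was the highest array each time. Without MC3 the change was -0.62 for Tnnc1, 0.11 for Tnni1 and 0.50 for Tnnt1, and without YC2 it was 0.07 for Tnni1 and 0.46 for Tnnt1. Only the untested Tpm3 probe set 1427567_a_at had all MC arrays below all YC arrays, by -1.48, with a limma adjusted p of 0.995 in the fit without a filter.

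CR mice set against YC mice differ in both age and diet. In this comparison 0 of 17 member probe sets passed in limma (0% of all tested), and 10 of 17 were lower at an unadjusted p under 0.05, against 5.56% of all. CR arrays lay below all YC arrays for 10 of 17, against 9.1% of all. The 3 fast-troponin probe sets of Tnnc2 and Tnni2 had an adjusted limma p of 0.16 each, a value shared by other probe sets, among them those of Eno3, Myh2, Acta1, Atp2a1, Casq1 and Mb. Their changes were -1.55 ± 0.24 for Tnnc2 and -1.82 ± 0.29 and -1.96 ± 0.32 for Tnni2. Tnnt3 had -1.77 ± 0.38 (limma adjusted p = 0.342). Tnnc1 had -1.27 ± 0.68 (adjusted p = 0.474) with no overlap, whereas Tnni1 (-1.25 ± 0.91) and Tnnt1 (-1.06 ± 0.86) overlapped. With 1 array left out, Tnni1 ran from -1.99 (without YC2) to -0.63 (without CR3) and Tnnt1 from -1.79 (without YC2) to -0.58 (without YC1). Leaving out YC1 changed the count to 5 member probe sets among 363 called in all. CR minus MC and CR minus YC share the CR arrays, so the 2 sets of changes are not separate observations.

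By group mean, the order was CR, then YC, then MC for the brightest probe sets of all 3 fast troponins, all 3 slow troponins, Tpm1, Tpm2 and Tpm3 (for Tpm3, CR stood above both control means with arrays centred on their medians). Between YC and MC the arrays overlapped for all 9 of these probe sets. CR lay apart from both neighbours for Tnnc2, Tnni2, Tnnt3 and Tpm3 (1427260_a_at), from YC only for Tnnc1, and from MC only for Tpm1 (1423049_a_at) and Tpm2 (1419738_a_at).

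Other genes of the thin filament were counted in CR against MC, where 45.3% of all tested probe sets were lower and 0.0888% were called lower. Among 20 thin filament partners past the filter, 16 were lower in CR than MC and 3 fell by the test, with a median of -1.55. These were Acta1, the skeletal actin (-1.87 ± 0.25), Lmod2, a leiomodin that nucleates actin filaments (-2.28 ± 0.31), and Xirp1, an actin-binding repeat protein (-2.87 ± 0.36), each with a limma adjusted p of 0.0357. Acta1 had 15.34, 15.03 and 15.07 in CR, against 17.21, 16.86 and 16.98 in MC, with no overlap. Xirp1 had 8.71, 8.37 and 9.02 in CR, with CR1 and CR2 below the filter at 8.95. The 4 partners that were not lower were Nebl, a nebulin-family protein (1.96 ± 0.55, all CR arrays above all MC arrays, limma adjusted p = 0.17), Capza1 (0.08 ± 0.21) and Capza2 (0.20 ± 0.21), subunits of the actin capping protein, and Tmod1 (0.15 ± 0.31), a tropomodulin that caps the pointed end. Of the other troponins and tropomyosin, Tnni3 and Tnnt2, the cardiac forms, lay below the filter, and Tpm4, a non-muscle tropomyosin, had a difference of 0.33 ± 0.28 (adjusted p = 0.527).

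Genes of both the fast and the slow fibre list were called lower in CR than MC. Over all tested probe sets, 0.0888% were called lower and 45.3% had changes below 0. Of 15 fast fibre genes past the filter, 14 were lower in CR than MC and 7 were called, with a median of -2.02. They were Myh2 and Myh4, fast myosin heavy chains (-4.31 ± 0.43 and -2.09 ± 0.30), Atp2a1, the fast calcium pump (-1.95 ± 0.25), Casq1, calsequestrin (-2.41 ± 0.34), Pygm, Eno3 and Ckm. Of 14 slow fibre genes, 11 were lower and 3 were called, with a median of -1.72: Csrp3 (-2.54 ± 0.32), Ankrd2 (-2.42 ± 0.37) and Mb, myoglobin (-2.33 ± 0.34). The 11 lower genes include Sox6, a repressor of slow genes (-0.46 ± 0.41). Over the arrays, Csrp3, Ankrd2 and Mb had r of 0.94, 0.89 and 0.90 with the fast troponin deviations. With the slow troponin deviations they had r of 0.66, 0.67 and 0.42. Myh7, the slow myosin heavy chain, had 6.33, 6.37 and 8.51 in CR and 9.69, 10.66 and 12.73 in MC, a change of -3.96 ± 1.0 with a limma adjusted p of 0.146. All its CR arrays and YC2 (7.64) lay below the filter at 8.95. Myh7 passed the filter through its other arrays, so the size of its change is limited there. As with the slow troponins, MC3 was its highest array and MC1 the lowest of MC. No list had a limma call in MC against YC or in CR against YC. At an unadjusted p under 0.05, 1 of the 15 fast and 2 of the 14 slow fibre genes differed in MC against YC, against 3.39% of all. In CR against YC these counts were 15 and 10, against 10.8% of all, and Gpd1 (0.91 ± 0.24) and Atp2a2 (0.45 ± 0.17) among them were higher in CR.

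Of 11 myogenic regulators past the filter, 9 were lower in CR than MC, against 45.3% of all tested probe sets, and 0 passed in limma. At an unadjusted p under 0.05 stood 4 of the regulators, against 18.5% of all, and their median was -0.46. The 2 with the smallest p were Vgll2 (-2.18 ± 0.39, limma adjusted p = 0.0841), a cofactor of TEAD proteins, and Mef2c (-1.13 ± 0.26, adjusted p = 0.145).

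The fast troponin deviations were followed most closely, over the 9 arrays and 13693 other genes, by Atp2a1 (r = 0.998), Mylpf and Tmod4 (0.992 each), Casq1 (0.991) and Acta1 (0.988), all muscle genes; the median r of all genes was -0.097. The slow troponin deviations were followed by Tbx6 (0.975), Bbs12 (0.944), Smad3 (0.938), Pa2g4 (0.931) and Plcl2 (0.930), none of them a fibre-type gene of the lists, with a median r of 0.014. Myh7 had an r of 0.79 with the slow deviations and 0.71 with the fast ones.

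**Figure D5:**
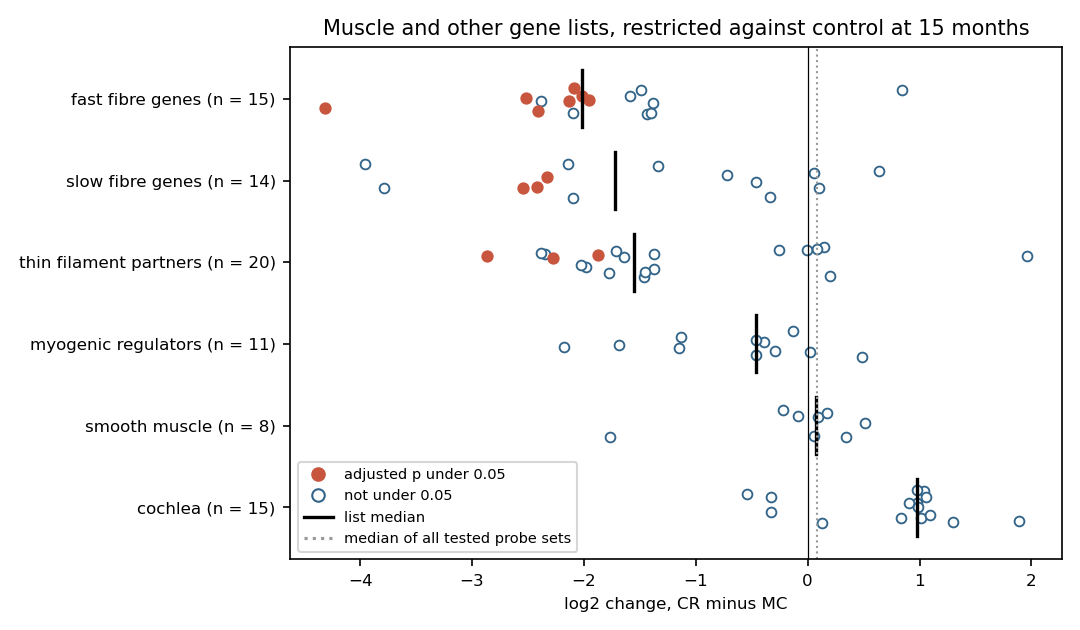
Log2 change, CR minus MC, of the genes past the filter in 6 lists (brightest probe set of each gene), with filled points for an adjusted p under 0.05, a bar at each list's median and a dotted line at the median of all tested probe sets. The medians run from -2.02 for fast fibre genes and -1.72 for slow fibre genes to 0.08 for smooth muscle and 0.98 for cochlea genes.

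Marker genes of muscle and other tissues were summed on the same arrays. All 18 skeletal muscle markers passed the filter and all 18 were lower in CR than MC, against 45.3% of all tested probe sets. Of these markers 8 were called lower, against 0.0888% of all, and the median was -2.02. Their summed signal was 189509 to 261180 in CR, 638824 to 928529 in MC and 452230 to 990680 in YC. The called markers Acta1, Ckm, Mb, Pygm, Eno3 and Casq1 are also on the thin filament or fibre lists, so these lists are not separate observations. Of 19 cochlea markers 15 passed, with Slc26a5, Pou4f3, Tecta and Kcne1 below the filter, 12 were higher in CR than MC (median 0.98), and the sum was 134669 to 200437 in CR, 78513 to 95301 in MC and 61507 to 110352 in YC. Of 12 brain markers 11 were higher (median 1.25), with sums of 43256 to 81190 in CR, 21566 to 28370 in MC and 21716 to 37672 in YC. Over all tested probe sets 54.7% were higher in CR than MC.

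Smooth muscle also uses Tpm1 and Tpm2, and 8 of its 11 markers passed, with 3 lower, a median of 0.08, and sums of 52431 to 62615 in CR, 55071 to 64111 in MC and 49321 to 63016 in YC. Acta2, the smooth muscle actin, stood at 0.09 ± 0.16. Synpo2, on the same list, was lower by -1.77 ± 0.33 (limma adjusted p = 0.0896), with no overlap of CR and MC arrays. It had an r of 0.95 with the fast troponin deviations. Of 8 cardiac markers 3 passed, and Myh6, Nppa and Myl7 were among those below the filter. Of these 3, 2 were lower (median -0.58), with sums of 3860 to 4274 in CR, 5852 to 16940 in MC and 8179 to 12290 in YC. They were Actc1 (-1.98 ± 0.4), Myl4 (-0.58 ± 0.67) and Ryr2 (0.66 ± 0.41). Actc1 had 10.47, 10.76 and 10.65 in CR, against 13.69, 11.97 and 12.15 in MC. It is also a thin filament partner, so the cardiac sums are not a separate observation. Of 9 fibroblast and bone markers 8 passed, 6 of them lower (median -0.38), with sums of 105911 to 141103 in CR, 132762 to 164281 in MC and 123928 to 221476 in YC. No marker of the cochlea, brain, smooth muscle, cardiac or fibroblast and bone lists passed the limma test in CR against MC. At an unadjusted p under 0.05 stood 8 of 15 cochlea, 9 of 12 brain, 1 of 8 smooth muscle, 1 of 3 cardiac and 3 of 8 fibroblast and bone markers, against 18.5% of all probe sets in either direction. In pooled tissue, fewer muscle cells and less troponin or tropomyosin RNA per cell cannot be told apart, and the part of dissected tissue in the troponin differences was not tested.

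With the array class as a term, the CR minus MC change was -1.12 ± 0.37 for Tnnc2, -1.33 ± 0.43 for Tnni2, -1.74 ± 0.68 for Tnnt3 and -1.09 ± 0.41 for Tpm2 (1419739_at), each with a limma adjusted p of 1. The slow troponins Tnni1 and Tnnt1 read -2.78 ± 1.69 and -3.68 ± 1.5 with that term, also at an adjusted p of 1. Slow Tnnc1 read -1.35 ± 1.27 with the term, against -1.57 ± 0.68 without it. Within the low class, CR against the single array YC1 gave -1.09 ± 0.21 for Tnnc2, -1.22 ± 0.27 for Tnni2 and -1.33 ± 0.34 for Tnnt3, with limma adjusted p-values of 0.147, 0.165 and 0.199, on the assumption that the lone array varies like the others. Since no class holds both CR and MC arrays, the values with the class as a term and those within the class both rest on YC1 and are not separate checks. Centred on array medians, the CR minus MC changes were -1.28 ± 0.50 for Tnnc2, -1.42 ± 0.56 for Tnni2, -1.54 ± 0.67 for Tnnt3 and -1.78 ± 0.41 for Tpm2 (1419739_at), with no adjusted p under 0.05. That scaling put the median change at 0.58 over the tested and 0.31 over all 45037 probe sets. With the deposited scaling the same probe sets read -1.90 ± 0.40, -2.04 ± 0.40, -2.16 ± 0.51 and -2.40 ± 0.33, of which Tpm2 passed (limma adjusted p = 0.0415). There the median was -0.04 over the tested and -0.31 over all 45037 probe sets. The brightest Tpm2 probe set (1419738_a_at) changed less and was not called in these settings. It read -0.48 ± 0.63 with the class as a term, -0.31 ± 0.53 centred on medians and -0.93 ± 0.39 with the deposited scaling. The count of 5 called member probe sets became 0 when any 1 of CR1, CR2, CR3, MC1 or MC3 was left out. It stayed at 5 without MC2, among 48 called in all. It was 7, 9 and 7 without YC1, YC2 and YC3, among 251, 987 and 35 called in all.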

How the data were processed

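Cochlear RNA of 9 pools, 3 per group, was hybridised to Affymetrix arrays. The authors deposited an intensity on a linear scale for every probe set and array. GCOS 1.3 was used, per the submitters' processing notes, and how signals were computed, scaled or filtered, and on which build, was not given in the sources used here. Trimmed means of the arrays agreed (1493.6 to 1496.4) while medians did not, and arrays give no read depth, so the precision rests on their number. Of 45037 probe sets, 34945 carried 1 gene symbol, 932 several and 9160 none; 34741 matched RefSeq by gene ID, and none with several was named.

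From these signals, log2(signal + 16) was quantile-normalized, probe sets under the 40th percentile of mean log2 were left out, and all 9 arrays were fitted in limma 3.58.1 (R 4.3.3) with a variance trend and Benjamini-Hochberg adjustment over all tested probe sets. The fit was tested on simulated data. Isoform pairs were compared by exact two-sided permutation over arrays. The array class is the side of the widest gap in array medians, 626.6 to 842.4.

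The members, gene lists (thin filament partners, other troponins and tropomyosin, fast and slow fibre genes, myogenic regulators) and markers (skeletal, smooth and cardiac muscle, fibroblast and bone, cochlea, brain) were chosen with earlier results of these data known. Named were all members, list genes past the threshold or otherwise the 2 with the smallest p in CR minus MC, and the 5 genes most like each troponin profile. Gpd1, Nebl, Capza1, Capza2, Tmod1, Atp2a2, Casq2, Acta2, Tpm4, Tnni3, Tnnt2, Myh7, Sox6 and the marker genes below the filter were added after their values were seen. So were Ppargc1a, Synpo2, Actc1, Myl4 and Ryr2. A gene stands for its brightest probe set. Alternatives were other pseudocounts (1, 64), filters, scalings, array weights, terms for array class, median or replicate number, fewer groups and each array left out. Promoter windows came from RefSeq GRCm38.p6.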

Additional observations from a re-analysis of the deposited data

How the results depend on the processing

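In CR minus MC, the 5 member probe sets and 25 probe sets in all that were called became 0 and 0 with arrays centred on their medians, with no variance trend, with a replicate block, with array class as a term and with the array median as a covariate. They became 1 and 7 with the deposited scaling, 11 and 3397 with array weights (whose estimation stopped before it converged), and 9 and 1846 with only the groups compared. With each array left out in turn the counts ran from 0 to 9 members and 0 to 987 in all. In CR minus YC they ran from 0 to 5 members and 0 to 363 in all, and 3 probe sets were called within the low array class. MC minus YC gave 0 calls throughout. The cause of these changes was not tested. Without a filter 6 of 21 members passed, and with the filter at the 60th percentile 6 of 15. Of the single-probe-set results in CR minus MC, 273 kept direction and side of the threshold, 54 kept direction but lost the call, 20 gained one and 8 turned sign. Only the 5 called probe sets could lose a call, so the 54 all belong to them, and the other probe sets had no call to lose.

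The same replicate numbers recur in all groups, but same-numbered arrays had correlations of -0.29 to 0.27 in their deviations from the group means, so they share only a number. With the replicate block, adjusted limma p-values of the called members were 0.0784 to 0.0797.

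Centred on medians, Tpm3 (1427260_a_at, 1436958_x_at) read 0.21 and 0.58 in CR minus MC, Tnni2 (1438609_x_at) -0.05 and Tpm1 (1447713_at) -0.15 in MC minus YC, and Tpm1 (1423721_at, 1456623_at) 0.53 and 0.08 and Tpm3 (1427260_a_at) 0.27 in CR minus YC. With the deposited scaling Tpm1 (1423721_at) read 0.12 in CR minus YC. Array weights gave Tpm1 (1423721_at) -0.03 in CR minus MC, Tnnc1 -0.16 in MC minus YC and Tpm1 (1456623_at) 0.05 in CR minus YC. Array class as a term gave Tpm1 (1423721_at) -0.11 and Tpm1 (1456623_at) 0.93 in CR minus MC and 0.58 in CR minus YC, also within the class; Tpm1 (1447713_at) and (1456623_at) read -0.26 and -0.35 in MC minus YC with that term and within the class. The array median as a covariate gave -0.31 and 0.77 for Tpm1 (1423721_at, 1456623_at) in CR minus MC, -0.13 and -0.31 for (1447713_at, 1456623_at) in MC minus YC and 0.47 for (1456623_at) in CR minus YC.

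The pair differences Tnnc2 minus Tnnc1, Tnni2 minus Tnni1 and Tnnt3 minus Tnnt1 in CR minus MC were 0.05, 0.44 and 0.51 both with medians centred and with the deposited scaling. Under the same scalings Tnnc2 minus Tnnc1 read 0.01 in MC minus YC and 0.06 in CR minus YC, and Tnni2 minus Tnni1 read 0 in CR minus YC. Within the low class, CR minus YC gave 0.03, 0.50 and 0.69 for the 3 troponin pairs. With the mean of each gene's probe sets, Tpm1 minus Tpm3 read -0.39 in CR minus MC (exact permutation p = 0.1) and -0.49 in MC minus YC, and with the other Tpm3 probe set it read 0.51, -0.24 and 0.27 in CR minus MC, MC minus YC and CR minus YC.

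With each array left out, Tnnc2 minus Tnnc1 ran from -0.99 to 0.60 in CR minus MC and from -0.89 to 0.71 in MC minus YC. Tnni2 minus Tnni1 ran from -0.80 to 0.62 in CR minus MC, from -1.19 to 0.32 in MC minus YC and from -1.11 to 0.16 in CR minus YC. Tnnt3 minus Tnnt1 ran from -0.79 to 0.68 in CR minus MC and from -1.39 to 0.09 in MC minus YC. In MC minus YC, Tnnc1 ran from -0.62 to 1.12, Tnni2 (1438609_x_at) from -0.06 to 0.50, and Tpm1 from -0.39 to 0.10 (1423721_at), from -0.26 to 0.20 (1447713_at) and from -0.35 to 0.55 (1456623_at). Tpm1 (1423721_at) ran from -0.17 to 0.32 in CR minus MC and from -0.29 to 0.10 in CR minus YC, and Tpm1 (1456623_at) from -0.51 to 0.39 in CR minus YC.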

Other observations

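Nebl and Gpd1 had changes above 0 in CR against MC, while most genes of their lists had changes below 0. Nebl, a nebulin-family protein of cardiac Z-discs that also has a non-muscle form, had 12.51, 12.69 and 12.38 on the CR arrays, against 9.66, 11.39 and 10.65 on the MC arrays and 12.11, 9.92 and 10.58 on the YC arrays. All CR arrays stood above all MC arrays, by 1.96 ± 0.55, with a limma adjusted p of 0.17. Gpd1, an enzyme of the glycerol phosphate shuttle listed with the fast fibre genes, had 0.84 ± 0.24 (adjusted p = 0.171). Ppargc1a, listed with the slow fibre genes, had 10.98, 11.03 and 11.13 in CR, against 10.45, 10.19 and 10.60 in MC. Its change was 0.64 ± 0.42 (limma adjusted p = 0.42), with no overlap of CR and MC. Atp2a2 and Casq2, also on the slow fibre list, lay near 0 with overlapping arrays. Atp2a2, the slow-fibre calcium pump that other tissues also make, had 0.06 ± 0.17, and Casq2, the slow and cardiac calsequestrin, had 0.10 ± 0.38. None of these genes passed the test.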
